A study of Homo sapiens with 6 samples.

Results

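The genes described here encode chromatin modifiers and remodellers, 63 of the 8529 genes in the expression table. They were chosen by symbol alone: DNA methyltransferases (DNMT), histone methyltransferases (KMT, SETD), acetyltransferases (KAT and a digit), demethylases (KDM), both families of deacetylases (HDAC, SIRT), TET dioxygenases (TET and a digit), bromodomain proteins (BRD and a digit), chromobox proteins (CBX), the remodeller families SMARC and CHD (CHD and a digit), and EZH1. The other core genes of Polycomb repressive complex 2, which are EZH2, EED and SUZ12, were not analysed here. The RNA came from wild-type SW480 cells, an established line from a human colorectal adenocarcinoma, grown for 72 h in wells coated with a soft (2 kPa) or a stiff (25 kPa) hydrogel. Each stiffness was tested in 3 wells, which gave 3 libraries per group, and nothing but the stiffness of the hydrogel is given as different between the groups. The wells shared 1 cell line, so the p-values measure the spread between these wells, and each gene is given as FPKM, its sequenced fragments scaled by the length of its exons and by the mapped reads of the library. The comparison asks which of these regulators differ in mRNA level between cells on a stiff and on a soft matrix.

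Nuclear DNA is wrapped around histones, and the chemical marks on both decide how accessible a gene is. Writers add methyl or acetyl groups, erasers remove them, readers bind the marked residues, and remodellers use ATP to slide or evict nucleosomes. In colorectal epithelium these proteins hold genes of differentiation and of proliferation in their active or silent states, and several of them are mutated or targeted by drugs in cancer.

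The 63 genes were measured at modest levels that spanned nearly 3 orders of magnitude. Mean FPKM over the 6 libraries ran from 0.0633 for CHD5, a remodeller best known from neurons, to 36.7 for CBX1, which encodes the heterochromatin protein HP1β. The median member stood at 2.89 FPKM, beside 2.61 for all genes, with 16 members below 1 FPKM, 34 from 1 to 10 and 13 at 10 or above. Chromobox proteins (median of 8.24 FPKM) and SMARC remodellers (7.52) were the most abundant roles with more than 2 members, and histone methyltransferases (1.24) and acetyltransferases (0.963) were the least abundant. The most abundant gene stood well above its relatives among the chromobox proteins (CBX1, with CBX6 next at 16.3 FPKM) and the HDAC genes (HDAC2 at 16.3, with HDAC8 next at 4.72). SMARCD2 (30.8) and SMARCE1 (28.1) stood close together, as did KDM5C (17.5) and KDM1A (15.9). Some widely expressed genes were listed at low values, such as SMARCB1 at 0.49 FPKM, and the same table lists GAPDH at 0.32 to 3.35 FPKM, so that a low entry here is a low value in this table rather than proof of a silent gene.

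**Figure D1:**
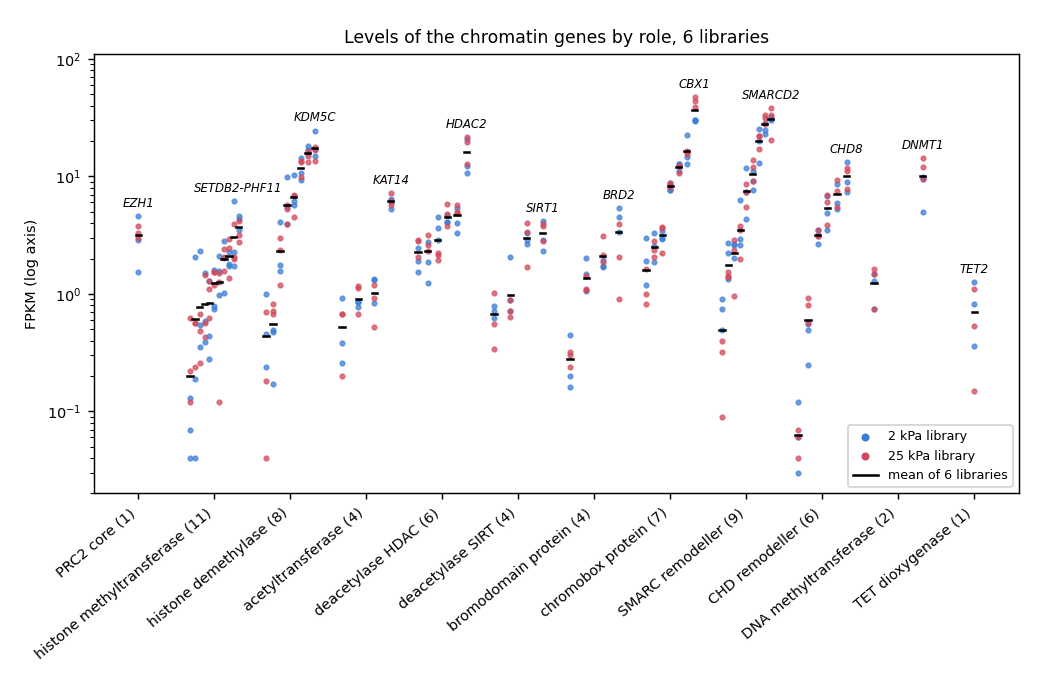
FPKM on a log axis for each of the 63 genes, grouped by role with the number of genes in brackets; each point is a library, each short bar the mean of 6 libraries, and the most abundant gene of each role is named. CBX1 (mean of 36.7 FPKM) and SMARCD2 (30.8) stand highest, and no histone methyltransferase exceeds a mean of 3.74.

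Markers of colorectal epithelium covered a wide range of levels. EPCAM stood at 64.7 to 101 FPKM and KRT18 at 2611 to 3358, whereas the markers of intestinal differentiation KRT20, CDX1 and CDX2 had means of 0.0533, 0.0933 and 0.447. The 3 of 10 listed fibroblast markers in the table summed to 0.31 to 1.11 FPKM and the 3 of 10 leukocyte markers to 2.39 to 5.47. Of the 12 epithelial and colorectal genes measured 10 were lower at 25 kPa, beside 3448 of all 8529 genes. ASCL2, CDX2, CLDN4 and KRT19 were separated on the lower side (all genes 4.78%), and 0 of the 12 passed the adjusted threshold. None of the 7 listed endothelial markers was analysed here. Of the 16 proliferation markers measured, 15 were higher at 25 kPa (median log2 difference of 0.55), beside 5081 of all 8529 genes. None of them passed the adjusted threshold of limma. By the same fit 6 had an unadjusted p under 0.05, all higher at 25 kPa (all genes 6.96% on that side). All 3 stiff libraries lay above all 3 soft ones in 7 (all genes 11.2%). Their summed FPKM was 440 to 530 at 2 kPa and 647 to 673 at 25 kPa. Log2 values of the libraries correlated at 0.974 to 0.988 within a stiffness and at 0.971 to 0.983 between stiffnesses, across genes, which are not independent replicates.

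Before stiffness is considered, the libraries at 2 kPa stood apart from one another in these genes. Replicate 2 held the highest of the 6 values in 32 of the 63 members (50.8%), as against 26.2% of all genes. Replicate 3 held the lowest value in 29 of the 63 (46%), as against 27.9% of all genes. The mean log2(FPKM + 1) of the members was 2.04, 2.30 and 1.90 in replicates 1 to 3 at 2 kPa and 2.13, 1.92 and 2.16 at 25 kPa, so that the gap between the 2 soft libraries at the extremes was larger than any gap between a soft and a stiff one.

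Among roles with more than 1 member, the demethylases showed this most. In 7 of 8 KDM genes replicate 2 lay above both other 2 kPa libraries, with a median excess of 0.58 on the log2(FPKM + 1) scale, and the same was seen in 44 of all 63 members (69.8%, median excess of 0.24) and in 49% of all genes (0.09). The widest excesses were those of SETD1B (1.46), KMT2E (1.27) and SETD1A (1.21), 3 methyltransferases that act on histone H3 or resemble those that do, then of the SWI/SNF subunit gene SMARCD1 (0.96) and the demethylase gene KDM3A (0.95). CBX1 was level across the soft libraries, at 30.5, 30.1 and 29.7 FPKM.

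Transcript length moved with this pattern. The median length was 5114 nt for the members and 3057 nt for all genes, taking the longest protein-coding transcript. Over all genes, the deviation of a library from the gene's mean correlated with log2 length at 0.30 in replicate 2 and -0.27 in replicate 3 at 2 kPa. The correlation was -0.10 in replicate 1 at 2 kPa, and 0.12, -0.26 and 0.18 in replicates 1 to 3 at 25 kPa. Soft replicate 2 was highest in 20 of the 31 longer members (64.5%) and in 11 of the 31 shorter ones (35.5%). It was also highest in 35.9% of all genes at least as long as the median member. With the length trend removed, it was highest in 26 of 62 members (41.9%), as against 25.2% of all genes. With the trend in GC content removed instead, the share was 30 of 62 (48.4%), as against 28.2%. Over all genes, the deviation correlated with GC content at 0.15, 0.17 and 0.14 in replicates 1 to 3 at 2 kPa. At 25 kPa these correlations were -0.27, 0.12 and -0.38, so that GC content moved partly with stiffness.

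**Figure D2:**
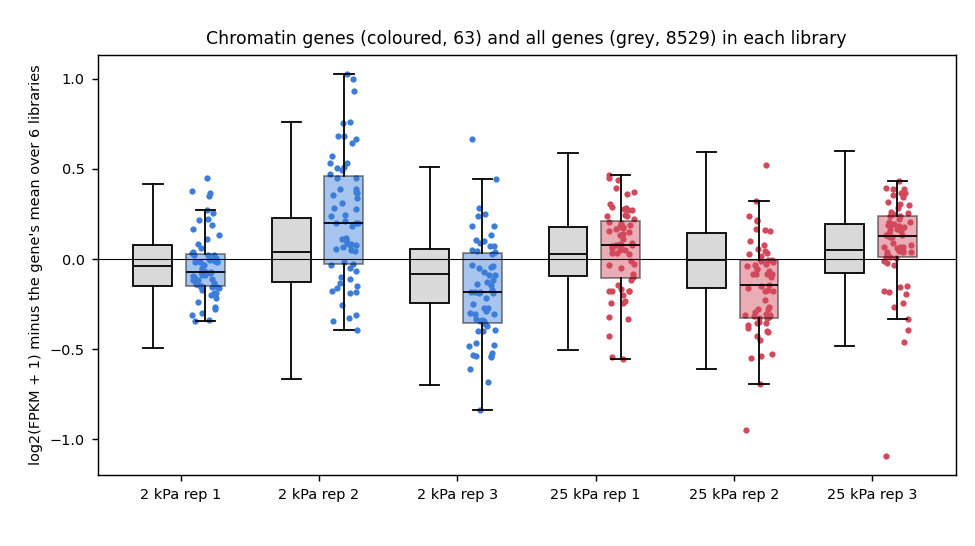
Log2(FPKM + 1) minus the gene's mean over 6 libraries, for all 8529 genes (grey boxes) and for the 63 chromatin genes (coloured boxes and points, blue at 2 kPa and red at 25 kPa); boxes give the quartiles, and whiskers reach the last value within 1.5 box lengths. The chromatin genes lie above the others in 2 kPa replicate 2 (median of 0.20, all genes 0.04) and below them in 2 kPa replicate 3 (-0.18, all genes -0.08) and 25 kPa replicate 2 (-0.14, all genes -0.01).

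Against this spread, no chromatin gene passed the adjusted test between the stiff and the soft matrix. By limma on log2(FPKM + 1) over all 8529 genes, 0 of 63 members reached an adjusted p under 0.05, beside 10 of all genes (0.117%), and the smallest adjusted p was 0.173, for CBX1. At an unadjusted p under 0.05 there were 5 members (7.94%), a share below the 10.2% of all genes. CBX1 and KDM4D were higher at 25 kPa (all genes 6.96%), and SMARCB1, HDAC5 and BRD2 were lower (all genes 3.19%). In a bulk sample, fewer cells expressing a gene and less of its RNA per cell cannot be told apart.

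The 3 libraries at one stiffness all lay above the 3 at the other in 5 members (7.94%), beside 16% of all genes. These were CBX1, KDM4D and the remodeller gene CHD7 on the higher side (all genes 11.2%), and SMARCB1 and HDAC5 on the lower side (4.78%). For a single gene, such a separation gives the smallest p that a two-sided exact permutation test of 3 against 3 allows, which is 0.1. BRD2 was called at an unadjusted p although its libraries overlapped, and CHD7 was separated at an unadjusted p of 0.0622 by limma.

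As a group the members lay evenly on both sides of 0, with 32 higher and 31 lower at 25 kPa. Thus 50.8% were higher, beside 59.6% of all genes, which is also the share to set beside the counts by role below. Their median log2 difference was 0.0016, beside 0.05 for all genes. In 44 of 63 the difference was smaller than the gene's own SD within groups, and that SD had a median of 0.28 for members and 0.21 for all genes. The 95% interval lay wholly between -1 and 1 in 56 members, and in 41 of the 47 with a mean of at least 1 FPKM, where the added 1 compresses a change less. The 7 whose intervals reached 1 or -1 were BRD2, SETDB2, DNMT1, CBX5, SETD1A, HDAC5 and KMT2E. Of these, the intervals of BRD2 and HDAC5 left out 0, and the other 5 took in both 0 and a change of 1 on this scale.

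Without 2 kPa replicate 2, 43 members were higher and 20 lower, the median was 0.12 (all genes 0.08), and 12 of the 31 lower members moved to the higher side. Still 0 passed the adjusted threshold, 6 had an unadjusted p under 0.05 (CBX1, DNMT1, HDAC2, KDM4D, SETD1B and SMARCB1), and 17 members were separated (27%), beside 28.3% of all genes. Without 2 kPa replicate 3, at the other extreme, 23 members were higher and 40 lower with a median of -0.06 (all genes 0.02), so that the balance shifted either way with the soft libraries that were kept. Rescaling every library to the same summed FPKM gave 22 higher and 41 lower, quantile normalisation 27 higher, median centring 28 higher and removal of the GC trend 39 of 62 higher. With the length trend removed, 32 of 62 were higher, 0 passed the adjusted threshold and 6 had an unadjusted p under 0.05.

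**Figure D3:**
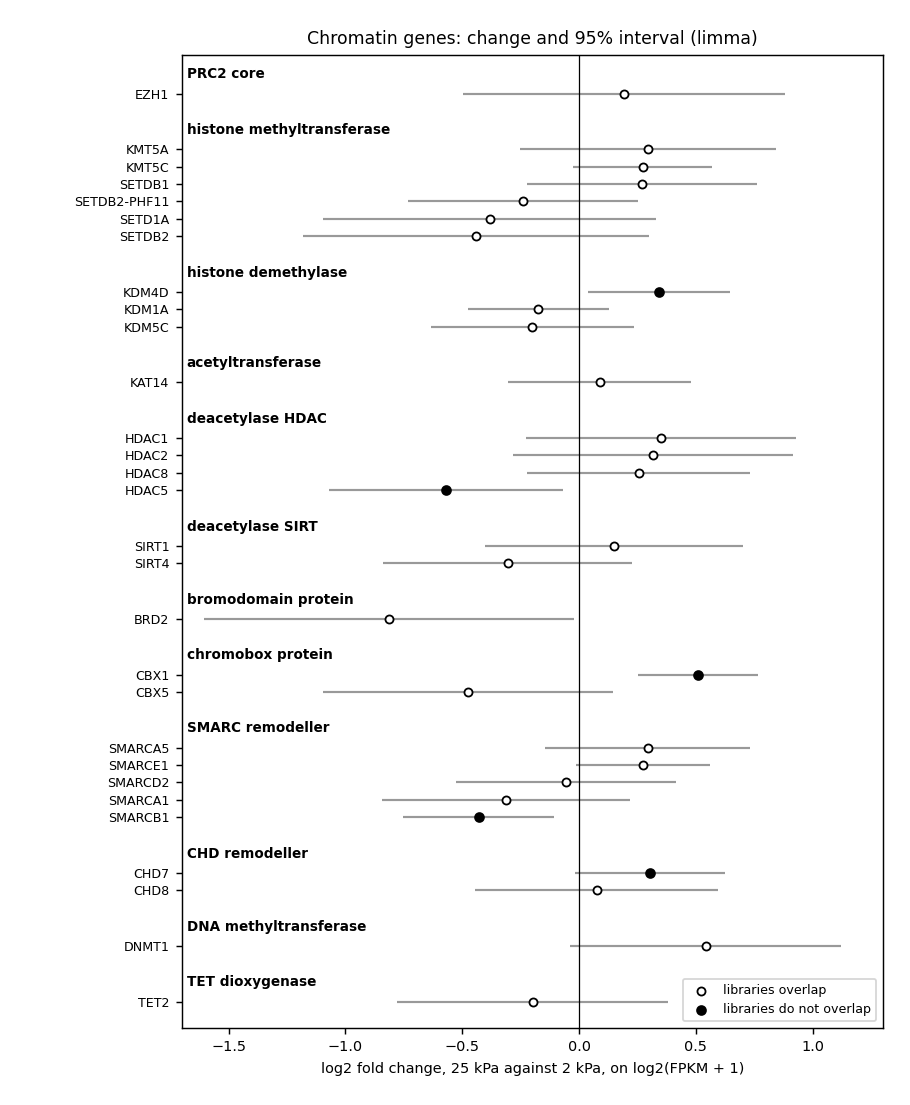
Log2 difference of 25 kPa against 2 kPa on the log2(FPKM + 1) scale for the 29 genes given library by library, ordered by role, with 95% intervals from limma; filled points mark the 5 genes whose libraries do not overlap between stiffnesses. The differences run from -0.81 (BRD2) to 0.54 (DNMT1), and most intervals include 0.

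Promoters are shown for 3 of the 5 separated members, since these are genes in which the 2 groups of libraries part; HDAC5 and CHD7 are named only. Each line gives the 250 bases before the first listed start in RefSeq (GRCh38.p14), 5′ to 3′ on the strand of the gene, with motif letters in capitals. CBX1 lies at chr17:48101187-48101436 (minus strand), SMARCB1 at chr22:23786716-23786965 (plus strand) and KDM4D at chr11:94973459-94973708 (plus strand).
CBX1: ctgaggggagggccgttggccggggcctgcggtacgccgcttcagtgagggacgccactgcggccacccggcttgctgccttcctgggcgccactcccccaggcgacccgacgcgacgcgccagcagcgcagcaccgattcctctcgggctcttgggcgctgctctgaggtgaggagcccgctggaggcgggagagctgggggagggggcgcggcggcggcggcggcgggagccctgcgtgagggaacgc
SMARCB1: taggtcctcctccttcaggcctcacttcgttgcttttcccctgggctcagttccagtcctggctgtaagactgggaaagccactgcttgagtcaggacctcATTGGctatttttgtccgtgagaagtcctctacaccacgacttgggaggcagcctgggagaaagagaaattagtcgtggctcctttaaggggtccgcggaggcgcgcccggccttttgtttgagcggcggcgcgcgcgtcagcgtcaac
KDM4D: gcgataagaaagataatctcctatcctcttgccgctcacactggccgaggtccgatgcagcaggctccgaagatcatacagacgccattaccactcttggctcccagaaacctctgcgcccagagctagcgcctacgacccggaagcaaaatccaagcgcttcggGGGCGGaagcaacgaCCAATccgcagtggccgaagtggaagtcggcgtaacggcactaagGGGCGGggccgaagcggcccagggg
The CBX1 window has a GC content of 76% with 30 CpG sites and none of the motifs searched. The SMARCB1 window has 58% GC and 1 CCAAT box in reverse (ATTGG). The KDM4D window has 60.8% GC, 2 GC boxes (GGGCGG) and 1 CCAAT box.

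Promoters of the whole family shared a high GC content. Of the 63 members 52 were matched by symbol, and their windows had a median of 65.2% GC and 22 CpG sites, beside 58% and 11 for all 27305 promoters. The GC box GGGCGG was present on either strand in 31 of the 52 (59.6%), beside 42.3% of all promoters. The CCAAT box was present in 17 (32.7%, all promoters 33%). The letters TATAAA were in 0 of the 52, beside 11.1% of all promoters. The E-box CACGTG was in 6 (11.5%, all 6.49%), the E2F forms TTTCCCGC and TTTGGCGC in 2 and 0, the CRE TGACGTCA in 1 and the NRF1 site in 0. None of these motifs contains another, and a match describes letters, not a bound site.

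In the paragraphs that follow, the values of a gene are FPKM in replicates 1, 2 and 3 at 2 kPa and then at 25 kPa, means are given ± SD over the 3 libraries of a group, folds are ratios of mean FPKM, and log2 differences with their standard errors and p-values are from limma on log2(FPKM + 1).

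Among the writers of histone methylation the largest differences were in low genes, and 0 of the 11 KMT and SETD genes had an unadjusted p under 0.05. Of these, 5 were higher and 6 lower at 25 kPa, with a median log2 difference of -0.01. KMT5A and KMT5C, which place successive methyl groups on histone H4 lysine 20, were both on the higher side, and so was SETDB1, an H3 lysine 9 methyltransferase that silences retroelements. KMT5C was measured at 0.13, 0.07 and 0.04 FPKM on the soft and 0.62, 0.12 and 0.22 on the stiff matrix. Its mean was 4-fold higher (0.08 ± 0.0458 to 0.32 ± 0.265), with overlap by 0.01 FPKM at its closest libraries, a log2 difference of 0.27 ± 0.13 (SE) and an unadjusted p of 0.0682. At such levels the 2 decimals of the table are coarse.

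KMT5A had 1.28, 0.44 and 0.28 FPKM at 2 kPa and 1.3, 0.62 and 1.09 at 25 kPa. Soft replicate 1 was nearly as high as the highest stiff library (log2 difference of 0.30 ± 0.24 SE, adjusted p = 0.752). SETDB1 had 0.79, 0.74 and 1.6 FPKM at 2 kPa and 1.54, 1.55 and 1.19 at 25 kPa. Here 2 of the soft libraries lay below all stiff ones and soft replicate 3 above them (0.27 ± 0.22 SE, adjusted p = 0.746).

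SETDB2, a relative of SETDB1, and SETD1A, a catalytic subunit of a complex that methylates H3 lysine 4, lay on the lower side. SETDB2 had 1.58, 2.12 and 0.98 FPKM at 2 kPa and 1.52, 0.12 and 1.26 at 25 kPa, so that a single stiff library, replicate 2, set the difference of -0.44 ± 0.33 (SE, adjusted p = 0.72). Without that library the difference was -0.08. The readthrough gene SETDB2-PHF11, which shares sequence with SETDB2 so that reads could be split between the 2 entries, had 3.47, 4.57 and 4.34 FPKM at 2 kPa and 3.18, 2.76 and 4.14 at 25 kPa (adjusted p = 0.79). SETD1A had 0.54, 2.34 and 0.35 FPKM on the soft and 0.48, 0.26 and 0.68 on the stiff matrix. Its difference of -0.38 ± 0.31 (SE, adjusted p = 0.757) rested on soft replicate 2 and was 0.02 without it.

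EZH1, the methyltransferase that can replace EZH2 in Polycomb repressive complex 2, had 2.85, 4.64 and 1.53 FPKM at 2 kPa and 3.28, 2.98 and 3.8 at 25 kPa. The stiff libraries all lay between the soft extremes (3.01 ± 1.56 and 3.35 ± 0.415, log2 difference of 0.19 ± 0.30 SE, adjusted p = 0.90 by limma). Leaving out single libraries moved it from -0.10 to 0.48.

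On the log2(FPKM + 1) scale the acetyltransferases were the least variable writers. Their median SD within groups was 0.19, beside 0.36 for the KMT and SETD genes. The added 1 compresses the spread of low genes. Means below 1 FPKM were found in 5 of the 11 KMT and SETD genes and in 2 of the 4 acetyltransferase genes. Their 4 log2 differences ran from -0.21 (KAT5, catalytic subunit of the NuA4/TIP60 complex) to 0.11 (KAT2A, the GCN5 subunit of SAGA), and each was smaller than the SD within groups of its gene. KAT14, a subunit of the ATAC complex and the most abundant of them, had 5.25, 6.04 and 6.48 FPKM on the soft and 5.71, 6.2 and 7.2 on the stiff matrix. It was nearly flat over all 6 libraries, which were within 1.37-fold of each other, with an interval of the log2 difference from -0.30 to 0.48.

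DNMT1, the methyltransferase that copies DNA methylation onto the new strand after replication, had the largest difference upward of all members on the log2(FPKM + 1) scale, whereas by fold KMT5C, KDM4D, CHD7 and KMT5A, which are low genes, exceeded it. It was measured at 9.54, 9.98 and 4.97 FPKM at 2 kPa and at 9.58, 14.3 and 12.1 at 25 kPa. Soft replicate 3 was low, and stiff replicate 1 equalled the other two soft libraries. The means were 8.16 ± 2.77 and 12 ± 2.38 FPKM (1.47-fold, log2 difference of 0.54 ± 0.25 SE, unadjusted p = 0.0633, adjusted p = 0.525 by limma). The difference was 0.26 without soft replicate 3 and 0.70 without soft replicate 2 (adjusted p = 0.41), and its size thus turned on the soft libraries left in. DNMT3B, a de novo methyltransferase, stood at 0.75 to 1.64 FPKM in both groups, with a difference of 0.07.

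Among erasers of histone methylation 6 of the 8 KDM genes were lower and 2 higher at 25 kPa, with a median log2 difference of -0.19. That lean came with the high soft replicate 2, and without it 5 of 8 were higher and 3 lower. KDM4D, which removes methyl groups from H3 lysine 9, differed from its family. It had 0.49, 0.47 and 0.17 FPKM at 2 kPa and 0.71, 0.82 and 0.68 at 25 kPa. Every stiff library lay above every soft one, with means of 0.377 ± 0.179 and 0.737 ± 0.0737 (1.96-fold, log2 difference of 0.34 ± 0.13 SE, unadjusted p = 0.0318, adjusted p = 0.429 by limma). Its unadjusted call was lost with 0.1 added in place of 1, after rescaling to equal sums and after median centring. It was also lost without soft replicate 3 and without any single stiff library, and was kept in the other settings that tested it. The gene is low, is left out when a mean of 1 FPKM is required, and has close copies between which reads could be divided.

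KDM1A and KDM5C were the abundant erasers. KDM1A, also known as LSD1, works with CoREST on H3 lysine 4 and had 15.7, 18.3 and 16.6 FPKM at 2 kPa and 13.2, 14.9 and 16.6 at 25 kPa. It was 0.882-fold at 25 kPa, with stiff replicate 3 inside the soft range (log2 difference of -0.17 ± 0.13 SE, adjusted p = 0.735). The interval ran from -0.48 to 0.13. KDM5C, a demethylase of trimethylated H3 lysine 4 encoded on the X chromosome, had 17, 24.6 and 15 FPKM at 2 kPa and 16.8, 13.6 and 17.7 at 25 kPa. All but soft replicate 2 lay in one narrow band, and the difference of -0.20 ± 0.19 (SE) was -0.002 without that library.

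The zinc-dependent deacetylases split in direction, with 5 of the 6 higher at 25 kPa (all genes 59.6%). HDAC1, HDAC2, HDAC3, HDAC6 and HDAC8 were each higher at 25 kPa and HDAC5 lower, with a median log2 difference of 0.26 over the 6 genes. The count of 5 higher and 1 lower was the same under 14 of 15 other settings and was 4 higher without 25 kPa replicate 3. Settings that changed only the error estimate or the set of genes tested could not alter this count. Each of the 5 higher genes had an unadjusted p above 0.2 by limma. HDAC5, a class IIa deacetylase that shuttles between nucleus and cytoplasm and represses MEF2 targets, had 2.89, 4.48 and 3.62 FPKM at 2 kPa and 2.23, 1.96 and 2.15 at 25 kPa. The stiff libraries were tightly grouped below all soft ones (3.66 ± 0.796 and 2.11 ± 0.139, 0.577-fold, log2 difference of -0.57 ± 0.22 SE, unadjusted p = 0.0304, adjusted p = 0.426 by limma). Without soft replicate 2 its difference was -0.45 (adjusted p = 0.519), and its unadjusted call was lost in that fit.

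HDAC1 and HDAC2 are the paired catalytic subunits of the Sin3, NuRD and CoREST complexes. HDAC2 had 12.2, 20.9 and 10.6 FPKM at 2 kPa and 19.6, 12.9 and 21.5 at 25 kPa. The 6 values fell into a high and a low set that crossed the groups, with soft replicate 2 among the high and stiff replicate 2 among the low (log2 difference of 0.32 ± 0.26 SE, adjusted p = 0.764). HDAC1 followed with 1.86, 2.75 and 1.25 FPKM at 2 kPa and 2.59, 2.34 and 3.18 at 25 kPa (0.35 ± 0.25 SE, adjusted p = 0.711), and HDAC2 stayed 5.5 to 8.5 times as abundant as HDAC1 in every library. Without soft replicate 2 the differences were 0.59 for HDAC2 (adjusted p = 0.395) and 0.54 for HDAC1 (adjusted p = 0.468). HDAC8, an X-linked class I enzyme known for acting on cohesin, had 4.02, 3.31 and 5.43 FPKM at 2 kPa and 5.02, 4.89 and 5.67 at 25 kPa, with soft replicate 3 inside the stiff range (0.26 ± 0.21 SE, adjusted p = 0.758).

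The sirtuins, deacylases that consume NAD, were low, with 1 higher and 3 lower at 25 kPa and a median log2 difference of -0.05. SIRT1, the best-studied nuclear member, had 2.87, 4.15 and 2.31 FPKM at 2 kPa and 3.81, 2.81 and 3.91 at 25 kPa (log2 difference of 0.15 ± 0.24 SE, adjusted p = 0.903). Its highest value was again that of soft replicate 2. SIRT4, a mitochondrial protein taken in by its symbol, had 0.89, 0.71 and 2.07 FPKM at 2 kPa and 0.63, 0.71 and 0.89 at 25 kPa. A single soft library, replicate 3, stood above the other 5 values (-0.30 ± 0.23 SE, adjusted p = 0.735), and without it the difference was -0.05. SIRT2 and SIRT7 differed by -0.01 and -0.08.

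TET2, which oxidises methylated cytosine as a step of demethylation, had 0.82, 1.27 and 0.36 FPKM at 2 kPa and 0.53, 0.15 and 1.11 at 25 kPa. Each group spanned nearly the whole range of the other, and the difference of -0.20 ± 0.26 (SE, adjusted p = 0.87) was not distinguishable from 0.

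Of the readers of acetylated histones, BRD2 had the largest difference downward of all members on the log2(FPKM + 1) scale, whereas SMARCB1 and SETD1A were lower by fold. BRD2 is a BET protein that binds acetylated histone H4 and helps transcription through chromatin. It had 4.54, 5.42 and 3.36 FPKM at 2 kPa and 3.9, 2.07 and 0.9 at 25 kPa. Stiff replicates 2 and 3 were below all soft libraries and stiff replicate 1 was among them. The means were 4.44 ± 1.03 and 2.29 ± 1.51 (0.516-fold, log2 difference of -0.81 ± 0.35 SE, unadjusted p = 0.0456, adjusted p = 0.476 by limma). The difference was -0.47 without stiff replicate 3 and -1.15 without stiff replicate 1. BRD7 and BRD9, which belong to 2 alternative SWI/SNF assemblies, differed by 0.26 and -0.18.

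Among readers of methylated histones the HP1 genes differed in direction. HP1 proteins bind methylated H3 lysine 9 and pack heterochromatin, and they are encoded by CBX1 (HP1β), CBX3 (HP1γ) and CBX5 (HP1α). CBX1 had 30.5, 30.1 and 29.7 FPKM at 2 kPa and 43.8, 38.7 and 47.6 at 25 kPa. The soft libraries were within 1 FPKM of each other, and the lowest stiff library was 8.21 FPKM above the highest soft one. The means were 30.1 ± 0.36 and 43.4 ± 4.48 (1.44-fold, log2 difference of 0.51 ± 0.11 SE, interval from 0.25 to 0.76, unadjusted p = 0.00165). That placed it 81st among all genes by p, with an adjusted p of 0.173 by limma. In all 15 other settings the difference stayed between 0.39 and 0.59, with an adjusted p from 0.137 to 0.533.

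CBX5 lay on the other side, with 1.9, 3.02 and 1.2 FPKM at 2 kPa and 1.63, 0.99 and 0.82 at 25 kPa. Stiff replicate 1 lay among the soft values (2.04 ± 0.918 and 1.15 ± 0.427, log2 difference of -0.48 ± 0.27 SE, adjusted p = 0.602). CBX3 stood at 3.12 ± 0.272 and 3.19 ± 0.84 FPKM, with a difference of 0.01 and an interval from -0.52 to 0.53. The ratio of CBX1 to CBX5 was 16, 9.97 and 24.8 at 2 kPa and 26.9, 39.1 and 58 at 25 kPa, and that of CBX1 to CBX3 was 8.78 to 10.4 and then 11.9 to 17.4. Both ratios, which were chosen after the values were seen, were higher in each stiff library than in any soft one, which restates the values of CBX1 and CBX5 and is not tested.

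CBX2, CBX6 and CBX8 are Polycomb chromobox proteins, which bind methylated H3 lysine 27 in Polycomb repressive complex 1. They differed by -0.05 to 0.07. CBX2 (8.02 ± 0.632 and 8.45 ± 0.266 FPKM) and CBX8 (12.2 ± 0.892 and 11.8 ± 0.98) were among the steadiest members, each within 1.2-fold over the 6 libraries. Their intervals were -0.26 to 0.39 and -0.36 to 0.25. Neither differed beyond the spread of its libraries, and the SD within groups of both (0.08 and 0.11 on the log2 scale) was below the 0.28 of the median member.

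**Figure D4:**
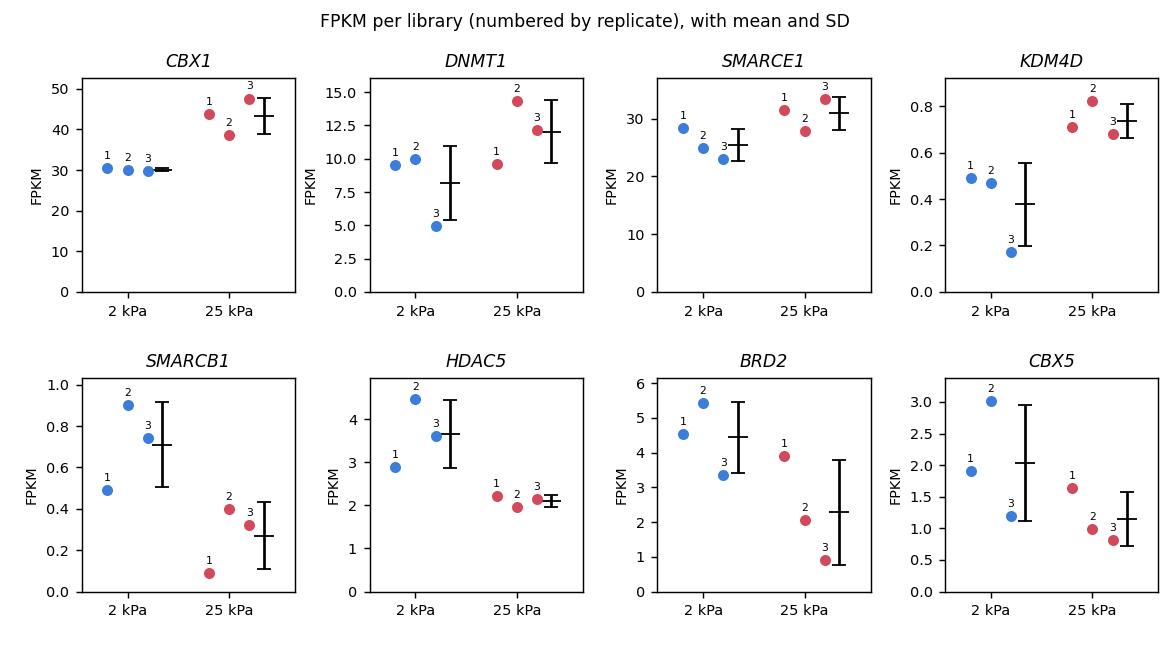
FPKM of 8 chromatin genes in each library, numbered by replicate (blue at 2 kPa, red at 25 kPa), beside the mean and SD of each group; each panel has its own axis from 0. CBX1, KDM4D, SMARCB1 and HDAC5 part completely between stiffnesses, whereas DNMT1, SMARCE1, BRD2 and CBX5 overlap.

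Most SMARC genes encode subunits of the SWI/SNF (BAF) and ISWI remodellers. Of the 9 SMARC genes, 3 were higher and 6 lower at 25 kPa, with a median log2 difference of -0.06. Without soft replicate 2 the split was 5 and 4. SMARCB1, a core SWI/SNF subunit and a tumour suppressor in rhabdoid tumours, had 0.49, 0.9 and 0.74 FPKM at 2 kPa and 0.09, 0.4 and 0.32 at 25 kPa. All stiff libraries lay below all soft ones (0.71 ± 0.207 and 0.27 ± 0.161, 0.38-fold, log2 difference of -0.43 ± 0.14 SE, unadjusted p = 0.0148, adjusted p = 0.348 by limma). The gap between the closest libraries was 0.09 FPKM, and the gene is left out when a mean of 1 FPKM is required.

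SMARCE1, another SWI/SNF subunit, was far more abundant and lay on the opposite side. It had 28.4, 24.9 and 22.9 FPKM at 2 kPa and 31.4, 27.8 and 33.4 at 25 kPa, with stiff replicate 2 just below soft replicate 1 (1.22-fold, log2 difference of 0.27 ± 0.13 SE, unadjusted p = 0.0593). SMARCD2, the most abundant subunit gene, was even at 30.1, 31.7 and 30.9 FPKM on the soft matrix and uneven at 20.3, 38.2 and 33.5 on the stiff one. Its means were nearly equal (30.9 ± 0.845 and 30.7 ± 9.26). The catalytic subunit gene SMARCA4 (BRG1) differed by -0.04 with a wide interval from -0.74 to 0.65.

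The ISWI ATPases SMARCA5 (SNF2H) and SMARCA1 (SNF2L) differed in direction, and neither had an unadjusted p under 0.05. SMARCA5 had 9.19, 11.2 and 7.59 FPKM at 2 kPa and 12, 9.22 and 13.8 at 25 kPa (log2 difference of 0.29 ± 0.19 SE, adjusted p = 0.672). SMARCA1 had 1.35, 2.22 and 2.72 FPKM at 2 kPa and 1.41, 1.55 and 1.39 at 25 kPa (-0.31 ± 0.23 SE, adjusted p = 0.724). In both genes 1 soft library fell within or beyond the stiff values.

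Of the 6 CHD remodellers, 5 were higher and 1 lower at 25 kPa, with a median log2 difference of 0.11. The count of higher genes was 3 after quantile normalisation or rescaling to equal sums and 2 without soft replicate 3. CHD7, which slides nucleosomes at enhancers and is mutated in CHARGE syndrome, had 0.49, 0.55 and 0.25 FPKM at 2 kPa and 0.92, 0.57 and 0.8 at 25 kPa. The groups parted by 0.02 FPKM (0.43 ± 0.159 and 0.763 ± 0.178, 1.78-fold, log2 difference of 0.30 ± 0.14 SE). CHD8, the most abundant of them and a gene recurrently mutated in autism, had 8.89, 13.2 and 7.39 FPKM at 2 kPa and 11.8, 7.85 and 11.1 at 25 kPa. As in HDAC2, replicate 2 was high on the soft and low on the stiff matrix, and the difference was 0.08 ± 0.23 (SE, adjusted p = 0.951).

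Other chromatin genes also gave no call past the adjusted threshold. Of 183 further genes listed by complex and activity, 96 were tested, of which 64 were higher and 32 lower at 25 kPa (66.7% higher, all genes 59.6%), with a median log2 difference of 0.12 (all genes 0.05). By limma 8 had an unadjusted p under 0.05 (8.33%, all genes 10.2%), 7 higher and 1 lower, and 16 were separated (16.7%, all genes 16%). The number higher was 51 after rescaling to equal sums, 53 after quantile normalisation and 76 without soft replicate 2.

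ATAD2, a bromodomain ATPase linked to replication and proliferation, had the smallest p of them. It had 13.5, 11.4 and 9.62 FPKM at 2 kPa and 23.3, 18.4 and 22.2 at 25 kPa, with complete separation (1.85-fold, log2 difference of 0.84 ± 0.16 SE, unadjusted p = 0.000559, adjusted p = 0.108 by limma). ASXL1, a cofactor of the Polycomb deubiquitinase, had 3.93, 3.73 and 2.77 FPKM and then 7.45, 5.63 and 7.36 (0.80 ± 0.20 SE, adjusted p = 0.218). PSIP1 (LEDGF), a reader of methylated H3 lysine 36, had 2.23, 3 and 0.15 FPKM and then 6.39, 5.8 and 5.61, separated also from the 2 higher soft libraries (1.49 ± 0.42 SE, adjusted p = 0.262).

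In the complexes that hold members, ACTL6A, an actin-related SWI/SNF subunit, had 13.2, 13.6 and 17.2 FPKM at 2 kPa and 20.4, 18.9 and 21.5 at 25 kPa (0.45 ± 0.14 SE, adjusted p = 0.314). RBBP7, a histone chaperone shared by NuRD, Sin3 and Polycomb complexes, had 105, 97 and 102 FPKM and then 141, 115 and 139 (0.37 ± 0.12 SE, adjusted p = 0.337). SS18L1, a SWI/SNF subunit known from neurons, had 0.04, 0.1 and 0.04 FPKM and then 0.35, 0.23 and 0.23 (0.26 ± 0.07 SE, adjusted p = 0.262). All of these were separated. The 1 lower call was the arginine methyltransferase gene PRMT2, named after its values were seen, at 4.02 ± 0.353 and 2.15 ± 0.635 FPKM (-0.69 ± 0.23 SE, adjusted p = 0.349).

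Of the 16 proliferation markers, 15 had a higher mean at 25 kPa and 1 a lower one. Of the 16, 7 were separated (43.8%), all on the higher side (all genes 11.2%). CCNB2, a mitotic cyclin with the smallest p of that list, had 38.4 ± 2.37 and 63.8 ± 6.37 FPKM (adjusted p = 0.0759 by limma). The part of proliferation in the differences of CBX1 and of the other chromatin genes was not tested.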

How the data were processed

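RNA of SW480 cells on 2 kPa and 25 kPa hydrogels was sequenced, with 3 libraries per group assigned by their labels. Per the authors' methods, reads were quality-checked and normalised to FPKM. The authors deposited FPKM per gene symbol with 2 decimals. The submitters' processing notes name HISAT, StringTie, Bowtie2, RSEM and hg18, without versions or roles. The protocol also describes purification of small RNA, although the table lists mRNA genes. The study's test models counts, so limma 3.58.1 (R 4.3.3; lmFit, eBayes with trend, two-sided) was run on log2(FPKM + 1) of all 8529 genes with Benjamini-Hochberg adjustment and a threshold of 0.05. FPKM + 1 understates changes of low genes. No whole-read steps were found among low FPKM, so the reads behind each value could not be recovered. The authors' methods state a sequencing depth and an average data volume per specimen, but not the reads of each library. Errors are the spread between libraries. GC content and length came from GENCODE v29 (62 of 63 members, 96.2% of all genes). Members given with every library were the 20 with the smallest p, the most abundant of each role and EZH1, and of the other chromatin genes the 6 with the smallest p. A result for 2 members is not reported here. Members and gene lists were chosen with earlier results of these data known. The script was tested on simulated data. The main fit did not pair samples by replicate number. Python 3.11.15 and matplotlib 3.10.9 drew the plots. Alternatives were a pseudocount of 0.1, a mean FPKM of at least 1, rescaling, quantile normalisation, median centring, eBayes without trend, a replicate block, GC and length trends removed (lowess, span of 0.3) and each library left out.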

Additional observations from a re-analysis of the deposited data

How the results depend on the processing

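Under all 15 alternatives 0 members passed the adjusted threshold, with the smallest member adjusted p between 0.137 and 0.533. The 5 members with an unadjusted p under 0.05 became 3 when a mean of at least 1 FPKM was required, since KDM4D and SMARCB1 were then not tested, and 2 to 7 with single libraries left out. The 2 were CBX1 and SMARCB1, without 25 kPa replicate 3. The split of these calls was 2 higher and 3 lower, and 1 higher and 3 lower after rescaling to equal sums. Over all genes, 68.6% of unadjusted calls were higher, as against 42.7% after rescaling, 51.1% after quantile normalisation and 49.9% after median centring. The 5 separated members became 2 with the filter, 3 after rescaling, 8 after quantile normalisation, 8 after median centring and 8 to 17 with 1 library left out, which is easier to reach with fewer libraries. The median log2 difference of members ranged from -0.06 to 0.12 with single libraries left out. The 8 other chromatin genes became 13 without the trend and 7 to 10 with libraries left out.

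Of the 29 members given with every library, 23 kept 1 direction in every setting in which they were tested. Direction could not turn without the trend, with the replicate block or with the filter, which leave each log2 difference unchanged. CHD8 turned to -0.039 after rescaling and -0.0022 after quantile normalisation, KAT14 to -0.019 after rescaling and SMARCD2 to 0.037 with the GC trend removed. With single libraries left out, SETD1A ranged from -0.63 to 0.021, EZH1 from -0.10 to 0.48, CHD8 from -0.091 to 0.29, SMARCD2 from -0.23 to 0.20 and TET2 from -0.42 to 0.015. The cause was not tested. Same-numbered libraries did not deviate together (correlations of 0.115, -0.267 and -0.125), so no pairing by number was seen. With 3 libraries per group, such correlations cannot exclude that wells were paired. With the replicate number as a block, 5 members had an unadjusted p under 0.05 and 0 an adjusted one, with HDAC5 lost from the unadjusted calls and KMT5C gained. With the GC trend removed the count was also 5, with HDAC5 and BRD2 lost from the unadjusted calls and DNMT1 and KMT5C gained. The reads behind each value are unknown, and the spread of 3 libraries per group limits what could be detected.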

Other observations

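Ratios of related members within a library were computed for 8 pairs chosen after the values were seen, as a description with no test. KDM5C and KDM5A, which both remove methyl groups from H3 lysine 4, gave the tightest ratio. FPKM of KDM5C over KDM5A was 1.58, 1.7 and 1.61 in the soft libraries and 1.28, 1.38 and 1.31 in the stiff ones, so that the groups parted (1.63 ± 0.0622 and 1.32 ± 0.0513) although each gene alone overlapped. Soft replicate 2 held the highest value of both genes. Of the 8 pairs, the groups parted in this one and in CBX1 over CBX5 and CBX1 over CBX3. They overlapped in HDAC2 over HDAC1, SMARCD2 over SMARCD1, KDM1A over KDM1B, SMARCA5 over SMARCA1 (2.79 to 6.81 and then 5.95 to 9.95) and DNMT1 over DNMT3B.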
